A study of Rattus norvegicus with 9 samples.

Results

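The Rab GTPases measured here are 97 probe sets for 56 genes, out of 31042 rat probe sets on the array. They were taken by symbol: every probe set annotated with a single gene symbol made of Rab, a number and at most 2 further characters, leaving out the partner genes Rab3ip and Rab5if. All 56 symbols are in the RefSeq gene table. The samples were thalamus from male Wistar rats, 4 fed solid feed (chow) and 5 fed powdered feed for 8 days. All were 3 weeks old at the start, all had first spent 2 days on powder, and the labels give an age of 5 weeks. Each array holds bulk tissue RNA. The labels speak of 10 rats without tying an animal to an array, so a p-value here rests on the scatter among arrays, part of which may be technical.

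Rab proteins are small GTPases of the Ras superfamily that act as switches on membranes. With GTP bound, each Rab sits on its own compartment (synaptic vesicle, endosome, Golgi, lysosome) and recruits effectors that tether, move or fuse that membrane. Exchange factors load GTP, GTPase-activating proteins switch the Rab off, and a GDP dissociation inhibitor carries the lipid-modified, inactive form through the cytosol. Neurons use Rabs for transmitter release, for the return of receptors to the synapse and for transport of organelles along axons.

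Only 24 of the 97 Rab probe sets, for 18 genes, spanned more than 0.01 log2 units over the 9 arrays. On the other 73 the 9 deposited values spanned between 0.000122 and 0.00101 log2 units. Such near-constant values also fill most of the whole table, where 26193 probe sets spanned less than 0.01. Differences on those probe sets can pass a test while having almost no size, so the results that follow separate probe sets that span at least 0.01 log2 units (called wide here) from the others (called compressed). For the remaining 38 Rab genes no wide probe set was present, and the data say little about the size of any change in them.

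Values are log2 expression per probe set, differences are chow minus powder from limma with their SE, and a probe set was called at a Benjamini-Hochberg adjusted p under 0.05 over all 31042 probe sets. Under chow, both wide probe sets for Rabs of early endosomes were called higher. So were 2 of 3 for transport from the Golgi to the surface, 2 of 5 for the endoplasmic reticulum and Golgi, 1 of 2 for late endosomes and lysosomes and 1 of 6 for secretory vesicles. For recycling endosomes 3 of 5 were called higher and 1 lower, and 2 of those 3 and the lower one belong to Rab14. The 1 probe set of a ubiquitin ligase Rab was not called. Of the 24 wide Rab probe sets, 12 were called, which is 50% of them, against 54.9% of all 4849 wide probe sets. The directions were split differently: 11 were higher under chow (45.8% of the Rab probe sets, against 16.1% of all wide probe sets) and 1 was lower (4.17%, against 38.8%). The median difference was 0.20 over the 24 Rab probe sets and -0.11 over all wide probe sets. For 9 of the 24 the groups did not overlap, against 50% of all wide probe sets. Over all 97 Rab probe sets, compressed ones included, 39 were called (40.2%, against 34.6% of all 31042) and 32 did not overlap (33%, against 29.9%). The 12 calls belong to 10 genes, Rab2a, Rab5a, Rab5b, Rab6a, Rab7a, Rab10, Rab11b, Rab12, Rab14 and Rab27b.

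**Figure D1:**
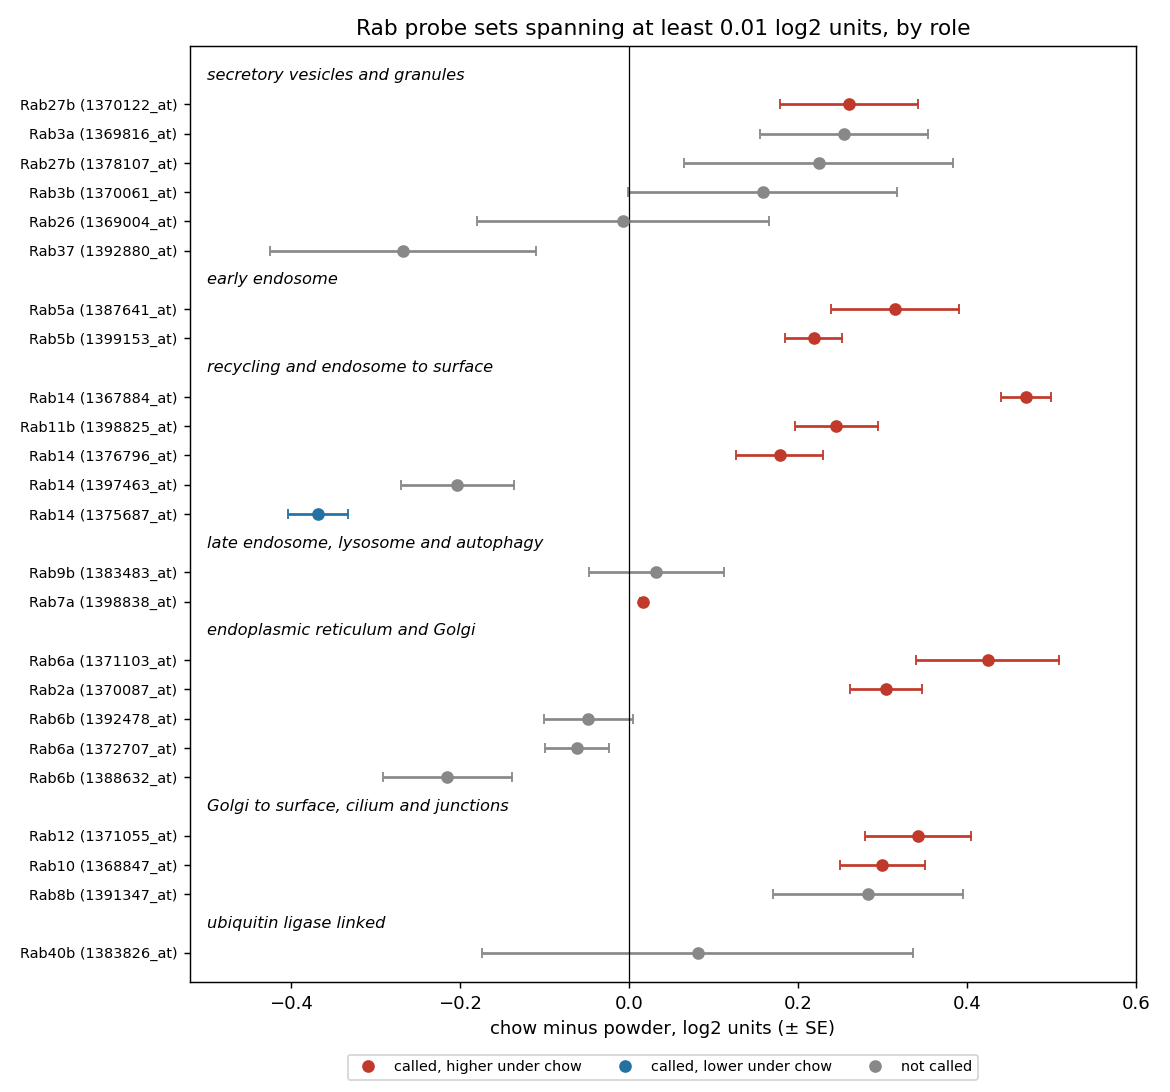
Chow minus powder difference in log2 units (points, with SE bars) of the 24 Rab probe sets spanning at least 0.01 log2 units, grouped by role, with red for called and higher under chow, blue for called and lower, and grey for not called. The 11 red points lie between 0.016 and 0.47, and the 1 blue point, a Rab14 probe set, lies at -0.37.

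The 150 bases before the annotated start are shown for 4 Rab genes with a higher wide call, from different compartments, as RefSeq gives them in GRCr8. Whether promoter elements take part in the Rab differences was not tested. Capitals mark the GC box GGGCGG on either strand, a common element of promoters that lack a TATA box. It was found in the windows of Rab5a and Rab11b and not in those of Rab6a and Rab10.

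Rab6a, chr1:164369883-164370032, + strand: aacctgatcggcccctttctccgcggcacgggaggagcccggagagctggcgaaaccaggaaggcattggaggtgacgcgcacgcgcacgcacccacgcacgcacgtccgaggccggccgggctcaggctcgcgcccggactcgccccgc
Rab5a, chr9:6720977-6721126, + strand: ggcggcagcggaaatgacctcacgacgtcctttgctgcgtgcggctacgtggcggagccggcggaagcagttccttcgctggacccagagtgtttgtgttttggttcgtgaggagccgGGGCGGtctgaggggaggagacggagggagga
Rab10, chr6:32039555-32039704, - strand: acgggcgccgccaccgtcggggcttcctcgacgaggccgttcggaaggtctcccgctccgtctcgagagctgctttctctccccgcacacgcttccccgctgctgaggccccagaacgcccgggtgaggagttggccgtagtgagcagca
Rab11b, chr7:15236755-15236904, - strand: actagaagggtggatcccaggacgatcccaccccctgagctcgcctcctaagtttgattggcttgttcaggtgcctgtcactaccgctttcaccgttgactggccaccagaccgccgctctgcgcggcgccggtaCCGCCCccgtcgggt

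The GC box was in 29 of 46 windows for 45 Rab genes (63.0%) and in 26.0% of all 33469 windows of that length, with no test made. The windows were not matched by kind of gene, so the contrast cannot be read as a trait of Rab genes. Each motif was counted on both strands, independently of the others. Among the 9 windows of Rab genes with a higher wide call, 5 held it, those of Rab5a, Rab5b, Rab7a, Rab11b and Rab14. The E-box CACGTG was in 2 of the 46 Rab windows and 3.74% of all, and in 0 of those 9. The core TGACGT of the cAMP response element was in 4 of the 46 and 5.31% of all, again in 0 of the 9. The CCAAT box, searched as ATTGG on both strands, was in 13 of the 46 (28.3%) and 23.5% of all, and in 3 of the 9, those of Rab5b, Rab6a and Rab11b. No single element searched was present in all 9 windows.

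Rab14, which moves cargo between early endosomes and the trans-Golgi network, had both the largest increase and the largest decrease of the family. Probe set 1367884_at, annotated with a RefSeq mRNA, read 10.05, 10.00, 10.08 and 9.96 on the chow arrays and 9.55, 9.51, 9.53, 9.60 and 9.59 on the powder arrays. Every chow value was above every powder value, and the difference was 0.47 ± 0.030 (1.38-fold, adjusted p = 0.00125, limma). Probe set 1375687_at read 9.49, 9.32, 9.40 and 9.44 under chow and 9.78, 9.80, 9.77, 9.81 and 9.73 under powder. Here every chow value was below every powder value, with a difference of -0.37 ± 0.036 (adjusted p = 0.00193, limma).

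The other Rab14 probe sets also disagreed. Probe set 1376796_at was at 9.32, 9.22, 9.31 and 9.25 under chow and at 9.02, 8.998, 9.14, 9.24 and 9.10 under powder, a difference of 0.18 ± 0.052 (adjusted p = 0.0343, limma). The groups overlapped there because powder 4 lay above chow 2, and with 1 array left out in turn the call held only without powder 4. Probe set 1397463_at was at 6.44, 6.47, 6.20 and 6.32 under chow and 6.66, 6.54, 6.61, 6.44 and 6.55 under powder, a difference of -0.20 ± 0.067 that just missed the threshold (adjusted p = 0.05005, limma). It was called without chow 2 and without powder 4. The fifth, 1385314_at, was compressed and not called. The accessions listed for 1375687_at, 1376796_at and 1397463_at are of expressed sequence tags, not of RefSeq mRNAs. The direction of Rab14 as a gene therefore depends on which probe set is read.

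**Figure D2:**
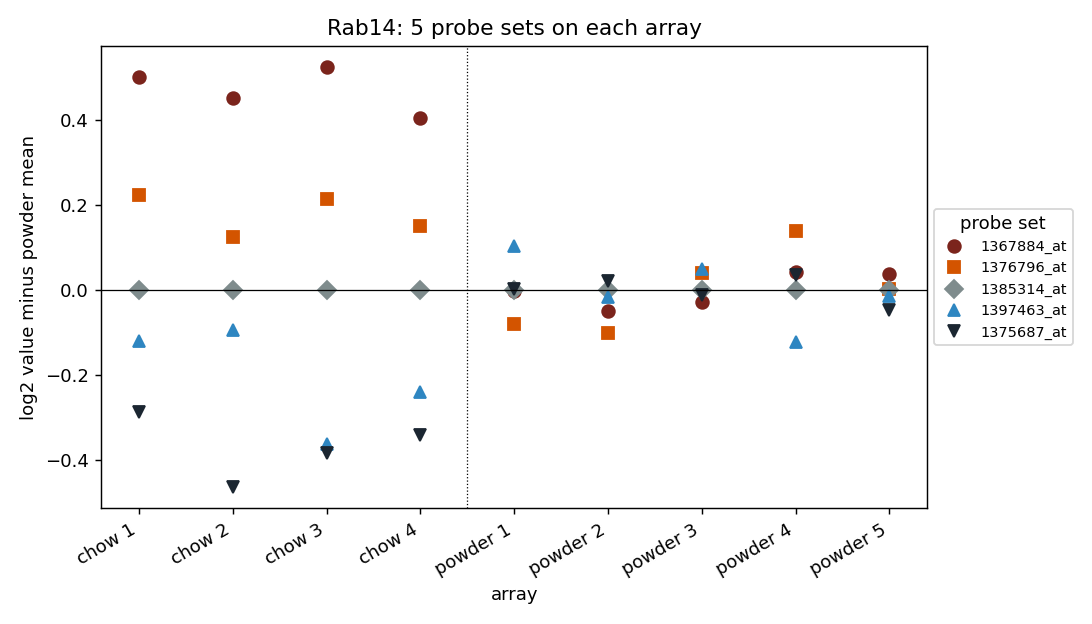
Log2 value of each of the 5 Rab14 probe sets minus its own mean over the powder arrays, for each of the 9 arrays, chow to the left of the dotted line. On the chow arrays 1367884_at and 1376796_at lie above 0, 1375687_at and 1397463_at lie below 0, and 1385314_at stays at 0.

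Rab11b, a Rab of recycling endosomes that return receptors to the cell surface, rose on its wide probe set. It read 9.24, 9.04, 9.15 and 9.06 under chow and 8.88, 8.81, 8.93, 8.95 and 8.83 under powder, a difference of 0.25 ± 0.049 with no overlap (1.19-fold, adjusted p = 0.0111, limma). The second probe set of Rab11b, 1375163_at, was compressed and not called. Its relative Rab11a had 2 compressed probe sets, of which 1398814_at was called with a difference of 0.000148 and 1374069_at was not called. Of the 8 recycling Rab genes, only Rab14 and Rab11b had a wide probe set.

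Both Rab5 genes with a wide probe set were higher under chow. Rab5 proteins drive the fusion of early endosomes and the first sorting step after endocytosis. Rab5a (1387641_at) read 9.29, 9.05, 9.30 and 9.16 under chow and 8.88, 8.75, 8.92, 9.05 and 8.82 under powder, a difference of 0.31 ± 0.076 (1.24-fold, adjusted p = 0.0194, limma). The groups overlapped slightly, since powder 4 lay just above chow 2. Rab5b (1399153_at) read 8.63, 8.60, 8.62 and 8.57 under chow and 8.35, 8.45, 8.29, 8.42 and 8.41 under powder. The 4 chow arrays lay close together and above all powder arrays, with a difference of 0.22 ± 0.034 (adjusted p = 0.0052, limma). Compressed probe sets of the same genes were called in both directions, for Rab5a at -0.000147 and for Rab5b at -0.000112, 0.000244 and 0.000312.

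In the group of endoplasmic reticulum and Golgi Rabs, 2 of 5 wide probe sets were called, both higher. Rab6a, which organises traffic out of and back to the Golgi, read 9.65, 9.63, 9.92 and 9.61 on 1371103_at under chow and 9.29, 9.22, 9.17, 9.47 and 9.24 under powder. Its difference was 0.42 ± 0.085 with no overlap (1.34-fold, adjusted p = 0.0110, limma), and chow 3 stood above the other chow arrays. A second wide Rab6a probe set, 1372707_at, had a difference of -0.062 ± 0.038 and was not called. Rab2a, a Rab of transport between the endoplasmic reticulum and the Golgi, read 10.15, 10.00, 10.20 and 10.09 under chow and 9.77, 9.78, 9.81, 9.88 and 9.78 under powder. All chow arrays were above all powder arrays, by 0.30 ± 0.043 (1.23-fold, adjusted p = 0.00424, limma). A second Rab2a probe set, 1392681_at, was compressed and not called. Rab6b, the relative of Rab6a that is abundant in brain, had wide probe sets at -0.22 ± 0.076 and -0.048 ± 0.053, neither called. With 1 array left out in turn, the first was called only without chow 3.

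Rab10 and Rab12 rose by similar amounts. Rab10 carries vesicles from the Golgi and endosomes to the plasma membrane, and Rab12 was grouped here with its relatives Rab8 and Rab10. Rab10 (1368847_at) read 9.11, 8.96, 9.11 and 8.95 under chow and 8.73, 8.62, 8.75, 8.82 and 8.73 under powder, a difference of 0.30 ± 0.050 (1.23-fold, adjusted p = 0.00654, limma). Rab12 (1371055_at) read 8.70, 8.495, 8.56 and 8.43 under chow and 8.20, 8.08, 8.27, 8.28 and 8.19 under powder, a difference of 0.34 ± 0.063 (1.27-fold, adjusted p = 0.00875, limma). The groups did not overlap for either gene. Each gene also had a second probe set, 1375338_at for Rab10 and 1371871_at for Rab12, that was compressed and not called. Rab8b, which takes vesicles from the Golgi to the surface and the cilium, had a difference of 0.28 ± 0.113 on its wide probe set and was not called (adjusted p = 0.0865, limma). With 1 array left out in turn, it was called only without powder 5.

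Of the 9 Rab genes of late endosomes and lysosomes, only 2 had a wide probe set, and both differences were small. Rab7a, the main late endosomal Rab, read 9.343, 9.343, 9.354 and 9.346 on 1398838_at under chow and 9.330, 9.329, 9.324, 9.337 and 9.332 under powder. The groups did not overlap and the test was passed, but the difference was only 0.016 ± 0.0031 (adjusted p = 0.00981, limma). It was not called when compressed probe sets were left out before the fit (adjusted p = 0.393, limma). Rab9b, which returns cargo from late endosomes to the Golgi, was at 0.032 ± 0.080 and was not called.

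**Figure D3:**
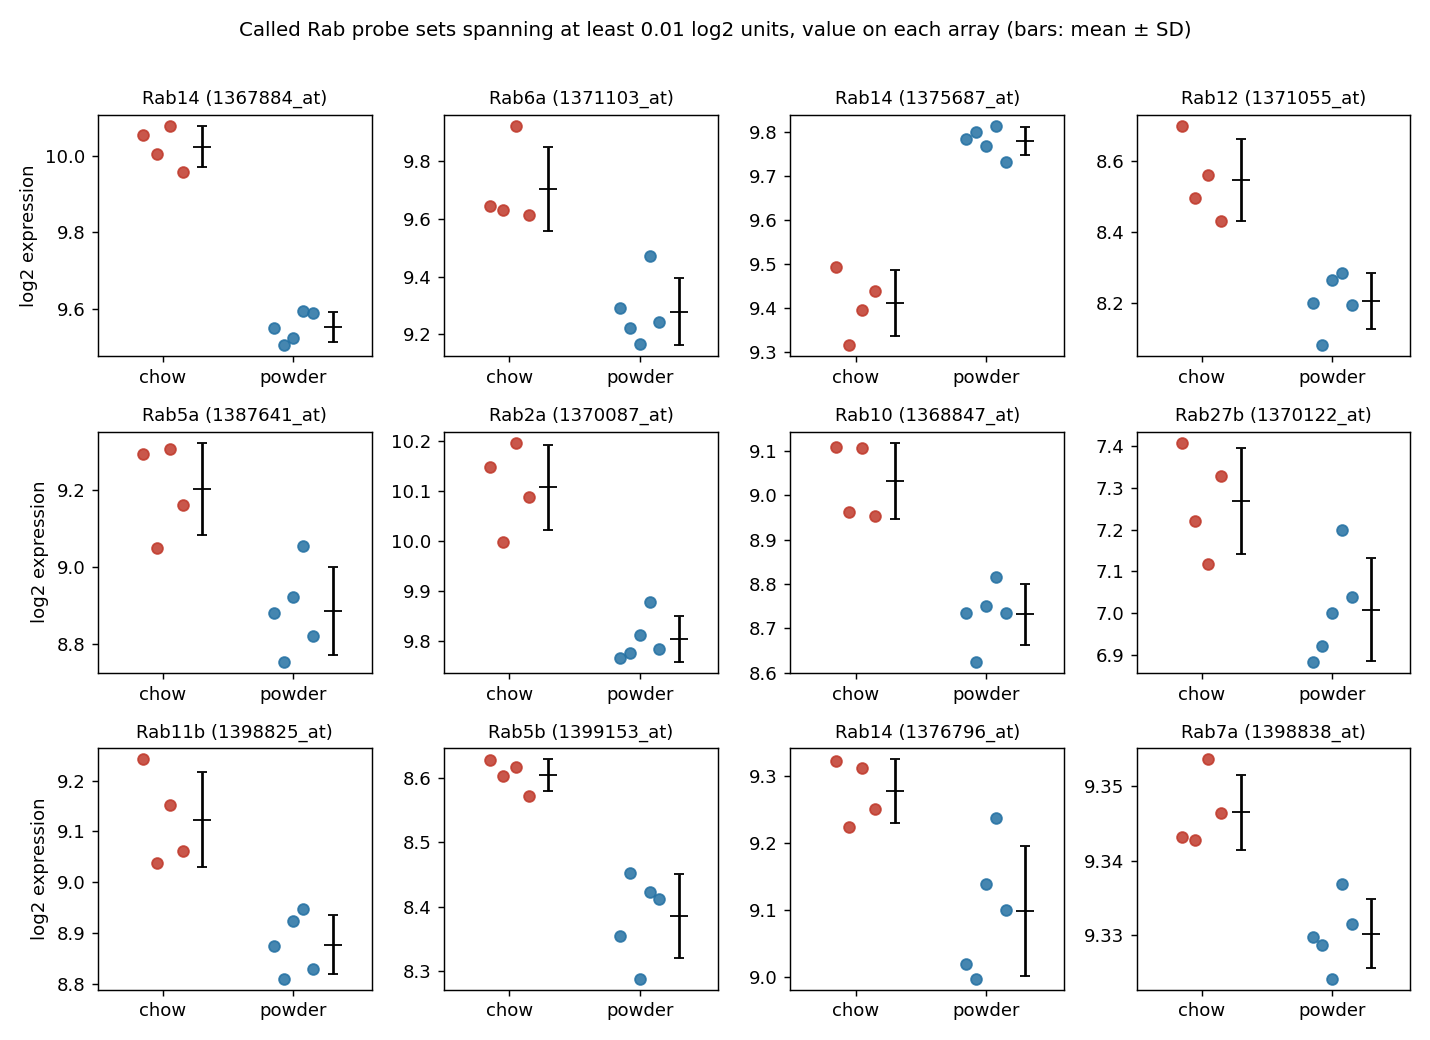
Log2 expression on each array for the 12 called Rab probe sets that span at least 0.01 log2 units, with chow arrays in red, powder arrays in blue and mean ± SD beside them. Each panel has its own vertical range, which for Rab7a covers only a few hundredths of a log2 unit, and in 9 panels the groups do not overlap.

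Secretory vesicle Rabs gave 1 call among 6 wide probe sets. Rab27b, which docks secretory granules and other regulated carriers, read 7.41, 7.22, 7.12 and 7.33 on 1370122_at under chow and 6.88, 6.92, 7.001, 7.20 and 7.04 under powder, with overlap (0.26 ± 0.081, adjusted p = 0.0430, limma). With 1 array left out in turn, it stayed called only without chow 3 or without powder 4. Without chow 1 the difference was 0.214 (adjusted p = 0.0986, limma). Rab3a, the Rab of synaptic vesicles, read 9.70, 9.77, 10.03 and 9.75 under chow and 9.49, 9.54, 9.68, 9.74 and 9.35 under powder on 1369816_at. The difference of 0.25 ± 0.099 was not called (adjusted p = 0.0811, limma), with powder 4 inside the chow range. That probe set was called after quantile normalization (adjusted p = 0.0348, limma) and after median subtraction (adjusted p = 0.0304, limma). It was also called with compressed probe sets left out before the fit (adjusted p = 0.0445, limma). A second Rab3a probe set, 1391434_at, was compressed and not called.

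For several of the Rabs that were not called, chow 1 was the highest or lowest array. None of these was called with chow 1 left out. Rab40b, a Rab that joins ubiquitin ligase complexes, read 8.53 on chow 1, against 7.28, 7.36 and 7.50 on the other chow arrays and 7.39 to 7.70 on the powder arrays. Rab26, a Rab of secretory granules, read 8.57, 7.81, 7.73 and 8.11 under chow and 7.94 to 8.22 under powder. The second wide Rab27b probe set, 1378107_at, read 8.53, 7.82, 7.998 and 7.78 under chow and 7.65 to 7.93 under powder. Chow 1 was the highest array for all 3 probe sets. Rab37, another secretory granule Rab, read 8.34, 8.97, 9.16 and 8.85 under chow and 8.97 to 9.21 under powder, so there chow 1 was the lowest. Rab3b, also a vesicle Rab, read 8.58, 8.08, 7.98 and 8.34 under chow and 7.81 to 8.35 under powder, with chow 1 again highest. In all, chow 1 was the highest or lowest of the 9 arrays for 8 of the 12 wide Rab probe sets that were not called. Among the 12 that were called, it was the highest array for 6 and chow 3 for 5. Neither share was counted over all wide probe sets.

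Chow 1 also stood apart in cell type markers. The mean of 9 wide probe sets for 7 of 8 striatal medium spiny neuron markers was 8.69 on chow 1, against 7.77 to 7.87 on the other chow arrays and 7.70 to 7.79 on the powder arrays, and chow 1 was highest on all 9. The mean of 10 wide probe sets for 6 of 9 thalamic relay neuron markers was 9.40 on chow 1, the lowest array on all 10, against 9.80 to 10.0 on the other chow arrays and 9.82 to 9.96 on the powder arrays. For reticular nucleus and interneuron markers (6 wide probe sets, 5 of 5 genes) chow 1 was at 9.51, the other chow arrays were at 8.84 to 9.09 and the powder arrays at 8.63 to 9.03. The mean of the astrocyte markers was higher on each chow array than on any powder array. Over 6 wide probe sets (4 of 6 genes) it was 10.3 on chow 1, 9.98 to 10.0 on the other chow arrays and 9.81 to 9.94 on powder arrays. Of the 6, 2 were called higher, against 16.1% of all wide probe sets. Endothelial markers, with 3 wide probe sets, had means of 8.277 to 8.494 under chow and 8.492 to 8.623 under powder, with slight overlap. Of the 3, 2 were called lower, against 38.8% of all wide probe sets. In bulk tissue, fewer cells of a type and less RNA per cell cannot be told apart. The part of these cell types in the Rab differences was not tested. With chow 1 left out, the wide Rab calls were 9 higher and 1 lower. The difference became -0.205 for Rab40b and -0.179 for Rab26, and 0.0572 for the second Rab27b probe set, none of them called.

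**Figure D4:**
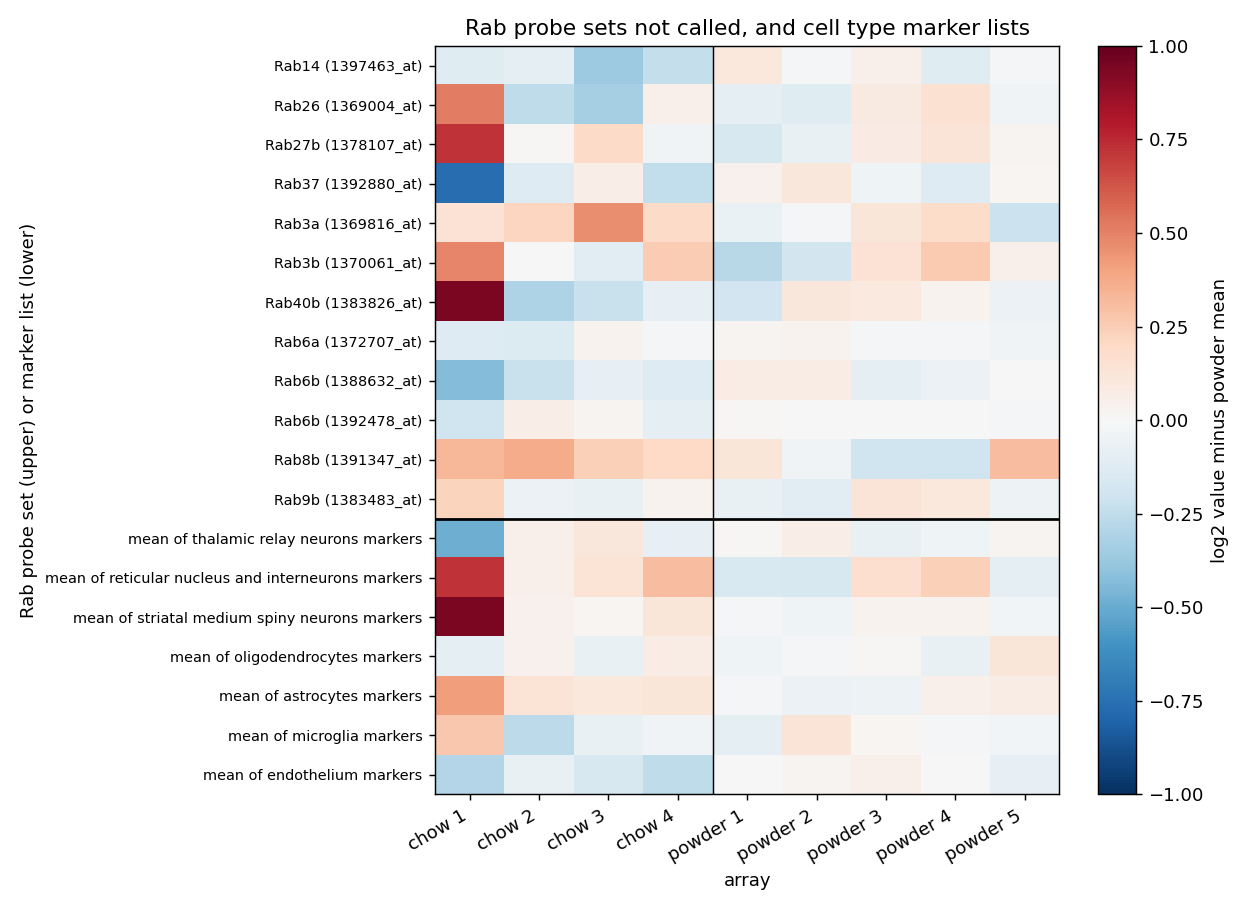
Heat map of log2 value minus the powder mean for the 12 wide Rab probe sets that were not called (upper block) and for the mean of each marker list with at least 3 wide probe sets (lower block), with arrays in columns and chow left of the vertical line. The chow 1 column holds the strongest colours, red for Rab40b, Rab26, Rab27b, striatal and reticular or interneuron markers and blue for Rab37 and relay neuron markers.

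The 11 higher calls also shared an array pattern, described here on the same values that gave the calls. How often it occurs over all wide probe sets was not counted. Powder 4 was the highest powder array for 10 of them. It was also the powder array with the highest 5' minus 3' signal of the beta-actin control, a common check of RNA integrity and of how far cDNA synthesis reaches. That signal was -1.52 ± 0.061 on chow arrays and -1.65 ± 0.060 on powder arrays (log2, mean ± SD, n = 4 and 5; two-sided exact permutation p = 0.0238, adjusted p = 0.0476 over 2 controls). The same measure for GAPDH was -0.49 ± 0.106 on chow arrays and -0.58 ± 0.063 on powder arrays (n = 4 and 5, exact permutation p = 0.143). With the beta-actin measure as a covariate, the wide Rab calls were 2 higher and 1 lower, namely Rab14 at 0.421 and -0.406 and Rab2a at 0.182. The difference of Rab6a was then 0.199, that of Rab5a 0.107 and that of Rab10 0.189, none of them called. Rab11b was at 0.151 (adjusted p = 0.192, limma) and Rab14 1376796_at at 0.0495 (adjusted p = 0.574, limma). Rab12 at 0.257, Rab27b at 0.204, Rab5b at 0.213 and Rab7a at 0.00912 were not called either. For Rab5b the value was close to the 0.218 without the covariate, so a lost call did not always come with a smaller difference. Because the beta-actin measure itself differed between the groups, this fit cannot tell it apart from the feed. Over all 4849 wide probe sets the calls with the covariate were 100 higher and 421 lower.

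The kind of sequence behind a probe set also moved with direction. Among wide probe sets annotated with a RefSeq accession, 6 of 9 for Rabs were called higher and 0 lower, against 21.9% higher and 13.9% lower of all 524 such probe sets. Among the other wide probe sets, 5 of 15 for Rabs were called higher and 1 lower, against 15.4% higher and 41.8% lower of all 4325. In both classes the Rab probe sets were called higher more often and lower less often than the class as a whole, as a description without a test. The second class is mixed and was not divided further. It holds expressed sequence tags, as for Rab14 1376796_at, and probe sets with no accession, as for Rab6a 1371103_at. The contrast in that class therefore does not stand for 1 kind of sequence. Whether accession class, probe position or RNA integrity takes part in the Rab differences was not tested.

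**Figure D5:**
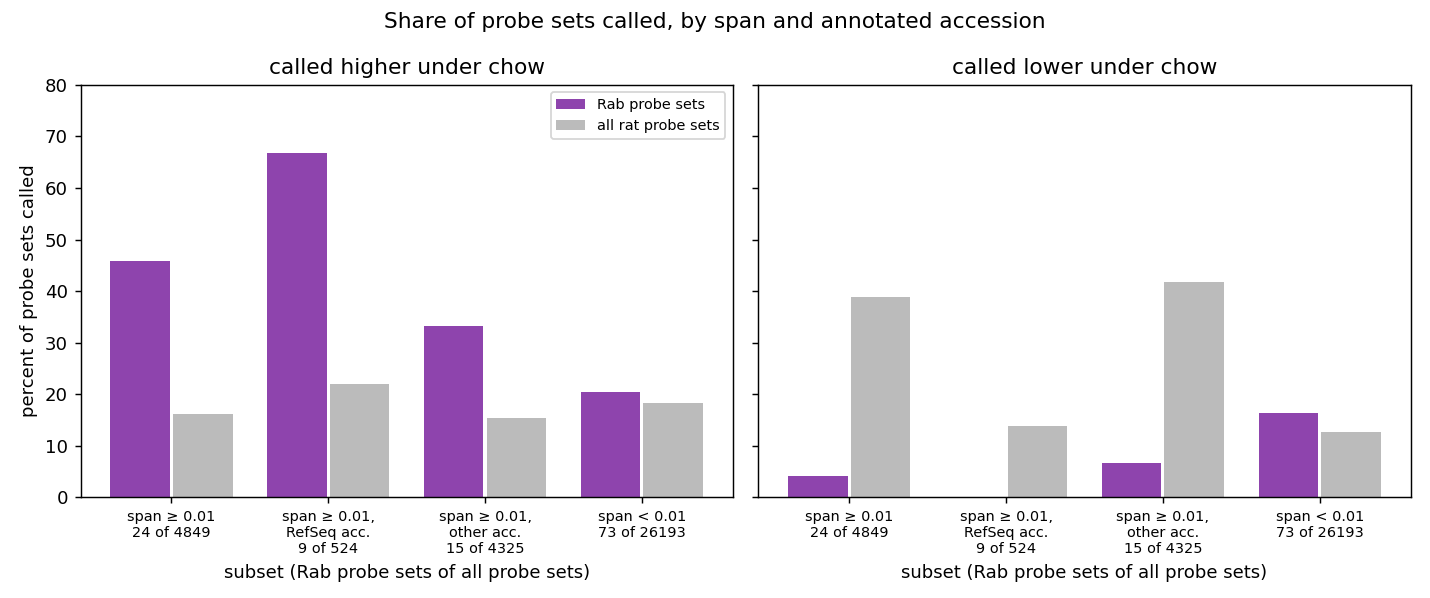
Percent of probe sets called higher (left) and lower (right) under chow, for Rab probe sets (purple) and all rat probe sets (grey), by span and by annotated accession. Purple bars exceed grey bars on the left in each wide subset and stay below them on the right, while among compressed probe sets the bars are close.

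Among the 73 compressed Rab probe sets, 27 were called, against 30.9% of all compressed probe sets, 15 of them higher and 12 lower, with differences of 0.000112 to 0.000481 in size. The shares, 20.5% and 16.4%, were near those of all compressed probe sets, 18.2% and 12.7%. Those of smallest p were Rab27a at -0.000346, Rab40c at -0.000348, Rab35 at -0.00042 and Rab7a (1387797_at) at -0.00026. Their direction depends on scaling: over all 97 Rab probe sets the calls were 26 higher and 13 lower as deposited, 66 and 3 after quantile normalization and 86 and 3 after array medians were subtracted. The whole table moved the same way, with 5558 higher and 5195 lower of 31042 as deposited. Quantile normalization gave 15610 higher and 1854 lower, and median subtraction gave 27206 higher and 2141 lower. Array medians were 7.391 to 7.396 on chow arrays and 7.398 to 7.402 on powder arrays, a gap larger than any difference called on a compressed Rab probe set. The wide probe sets moved far less, with 12 higher and 3 lower, and 13 higher and 3 lower. For 7 of the 10 Rab genes with a wide call, the probe set of highest mean value was a compressed one. The count by gene, with the highest probe set standing for each, was 9 higher and 10 lower of 56. The share of all genes called in that fit was not counted. Rab5a and Rab7a were represented there by compressed probe sets, with differences of -0.000147 and -0.00026.

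Transcripts of the proteins that load, unload and carry Rabs, and of those that read them, did not follow one direction. Of 32 wide probe sets for 4 lists of Rab partners (133 of 157 genes measured, 204 probe sets), 9 were called higher and 17 lower. Both were larger shares than the 16.1% and 38.8% of all wide probe sets. Their median difference was -0.14, with -0.11 over all wide probe sets. Over all their probe sets 39 were higher and 49 lower, against 17.9% and 16.7% of all probe sets.

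Chaperones and lipid attachment came first. Gdi2, a GDP dissociation inhibitor that retrieves Rabs from membranes, averaged 9.93 ± 0.115 over 4 chow arrays and 9.62 ± 0.085 over 5 powder arrays (mean ± SD), a difference of 0.31 ± 0.064 (adjusted p = 0.0120, limma). The Golgi membrane protein Yipf4 was higher by 0.21 ± 0.046. Rabggta, a subunit of the enzyme that attaches the lipid anchor, fell by only 0.014 on the log2 scale, and its difference turned to 0.00266 after quantile normalization. Those were the 3 wide probe sets of that list.

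Of the 8 wide probe sets of exchange factors, 1 was called higher and 4 lower, against 16.1% and 38.8% of all wide probe sets. Dennd4c, an exchange factor for Rab10, averaged 8.36 ± 0.070 over the chow arrays and 8.73 ± 0.052 over the powder arrays (mean ± SD), a difference of -0.37 ± 0.039 (adjusted p = 0.00225, limma). Rabgef1, which activates Rab5, was at -0.26 ± 0.048, Madd (1372580_at), which activates Rab3, at -0.19 ± 0.033, and Dennd1b, which activates Rab35, at -0.14 ± 0.034. A second Madd probe set, 1369066_at, had a difference of 0.0019 and was not called. Mon1b, part of the activator of Rab7, was the one higher, at 0.15 ± 0.032. On the list of GTPase-activating and related TBC-domain proteins, 2 of 3 wide probe sets were called, both lower, against 38.8% of all wide probe sets. They were Tbc1d23, a TBC-domain protein known as a golgin adaptor, at -0.30 ± 0.056 and Tbc1d4, a GTPase-activating protein for Rab10 and its relatives, at -0.25 ± 0.072.

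Effectors went both ways, with 6 of 18 wide probe sets called higher and 10 lower, against the same 16.1% and 38.8%. Among those of largest difference, the lysosomal tethering subunit Vps41 was at 0.34 ± 0.110, with overlapping groups (adjusted p = 0.0467, limma). The Rab7 effector Osbpl1a was at 0.34 ± 0.064 and the Rab5 effector Appl1 at 0.30 ± 0.051. The Rab5 effector Ankfy1 was at -0.34 ± 0.025, the Rab27 effector Myrip at -0.31 ± 0.039 and the phosphatase Inpp5b at -0.30 ± 0.035. Thus 2 effectors of Rab5 moved in opposite directions while both wide Rab5 probe sets rose. With the beta-actin covariate the partner calls were 2 higher and 13 lower over all 204 probe sets.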

How the data were processed

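Per the labels, TRIzol-extracted RNA was cleaned with an RNeasy kit, and 100 ng went into biotin-labelled cRNA. The deposited table holds log2 expression values made by the authors, 1 per probe set and array. The sources used here do not name their software, background correction or normalization. The log2 scale was read from the range of values, so any centring stays unknown. No further normalization was applied. Detection calls were not analysed here. Gene names came from the platform annotation (20826 with 1 symbol, 436 with several, 9780 with none).

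After leaving out 57 control probe sets, chow was compared with powder on all 9 arrays with limma 3.58.1 in R 4.3.3 (lmFit, eBayes, no covariate) and Benjamini-Hochberg adjustment over 31042 probe sets. Every called wide Rab probe set is named, with all wide probe sets of the family beside it, and up to 6 called wide probe sets per partner list. Compressed ones are given by count, with the 4 of smallest p and further ones of named genes. The members, lists, span limit and alternatives were chosen with earlier results of these data known. The fit was tested on simulated data. Precision is limited by the number of arrays.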

Additional observations from a re-analysis of the deposited data

Results flagged for a closer look

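In 98 groups of arrays examined (wide Rab probe sets, named partners and marker means, each in 4 chow and 5 powder arrays), 6 had 1 array far from the rest, where chance gives about 1 in 20. Among Rab probe sets this held only for Rab6a 1371103_at, with chow 3 at 9.922 and the other chow arrays at 9.61 to 9.65. Without chow 3 its difference was 0.352 and it was still called. Among partners, Inpp5b was at 8.56 on chow 1 (other chow arrays 8.68 to 8.69) and Appl1 1395505_at at 6.772 on powder 4 (other powder arrays 6.58 to 6.62). Marker means stood apart for striatal neurons on chow 1 (8.687, others 7.77 to 7.87), for astrocytes on chow 1 (10.29, others 9.98 to 10.0) and for the choroid plexus marker Ttr on chow 3 (9.529, others 8.23 to 8.45).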

How the results depend on the processing

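Counts of calls are given as the total, then higher and lower under chow. As deposited, they were 39 for all Rab probe sets (26 and 13), 12 for the wide ones (11 and 1) and 88 for partner probe sets (39 and 49). After quantile normalization all Rab probe sets gave 69 and partners 162 (146 and 16), and with array medians subtracted 89 and 201 (182 and 19). With compressed probe sets left out before the fit the counts were 15 and 27, and Rab7a 1398838_at was not called. Under quantile normalization, median subtraction and that fit, Rab3a 1369816_at was called higher. Rab14 1397463_at and Rab6b 1388632_at were called lower in those settings and with array weights. Rab8b 1391347_at was called higher after median subtraction and with compressed probe sets left out. With the beta-actin covariate they were 9 for all Rab probe sets, 3 for the wide ones and 15 for partners. With a minimum difference of 0.1 all Rab probe sets gave 11, with 1 probe set per gene 19, and with each gene's probe sets reduced to their median 22 (15 and 7). The shares over all probe sets or all genes were not counted for these settings. With the title numbers as a replicate block all 3 counts were 0, and 19 of 31042 probe sets were called. Same-numbered arrays deviated together with correlations of -0.31, 0.19, -0.34 and -0.16, and no chow array correlated best with its own number. These values show no sign of pairing, but so few correlations cannot decide whether the numbers pair the samples. The block fit compares same-numbered arrays, and the last powder array has no chow array of its number. With 1 array left out in turn the counts were 30 to 38, 10 to 13 and 62 to 79. All 12 wide Rab calls kept their direction in every alternative, and 10 of them were called with any array left out. The exceptions were Rab14 1376796_at (adjusted p = 0.0815 without chow 1, called only without powder 4) and Rab27b 1370122_at (called only without chow 3 or powder 4). Signs turned for uncalled or compressed probe sets and for Rabggta, a called wide partner. Rab26 was at 0.0119 after quantile normalization, Rab3a 1369816_at at -0.0269 and Rab9b at -0.0431 with the covariate, and Rab40b at -0.014 with array weights. After quantile normalization Rab11a 1374069_at was at 0.0247, Rab5a 1388800_at at 0.0183, Rab7a 1387797_at at 0.0184 and Rabggta at 0.00266. With medians subtracted Rab11a, Rab5a, Rab7a and Rab3a 1391434_at were at 0.00639, 0.00643, 0.00631 and 0.00657, and with array weights that Rab3a probe set was at 2.1e-05. With 1 array left out, Rab26 ranged from -0.179 to 0.1, Rab40b from -0.205 to 0.21, Rab9b from -0.0319 to 0.0666, Rab6b 1392478_at from -0.0875 to 0.0026 and Rab3a 1391434_at from -6.16e-05 to 4.66e-05. The cause was not tested. Signal over background was not analysed here.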
